A study of Bos taurus with 7 samples.

Results

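Bovine blastocysts grown from oocytes that matured with etomoxir were compared with blastocysts from control oocytes, over 3 etomoxir libraries and 2 control libraries of the 7 in the series. The members were all genes with at least 10 counts in at least 2 of these 5 libraries, which kept 14829 of the 27607 Ensembl gene IDs in the deposited table. Of the 12778 IDs left out, 9366 had 0 counts in all 5 libraries. The Control group and the Etomoxir group differ in the labels only by treatment, and both hold Bos taurus embryos at the blastocyst stage. The other 2 libraries came from oocytes matured with IO+DHEA and entered no test here. The sources used here do not give the dose, the length of exposure, the embryos per library, their sex or whether replicates came from separate cultures. The p-values therefore measure only the spread between these libraries, which may be technical.

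A blastocyst is the embryo in which an outer trophectoderm surrounds a fluid-filled cavity and an inner cell mass. Long-chain fatty acids enter mitochondria for oxidation through the carnitine shuttle, whose first enzyme, carnitine palmitoyltransferase 1, is the target of etomoxir. Oocytes and early embryos of cattle are rich in lipid, and fatty acid oxidation is known as an energy source during oocyte maturation. Here the inhibitor was applied while the oocyte matured, and RNA was taken from the later embryo. The table holds no gene symbols, and the RefSeq gene table at hand matched 0 of its IDs. The genes are therefore described by counts, levels and place in the table, and at most 2 IDs are given in each direction. For the same reason the blastocyst label was not checked against lineage markers.

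The 5 libraries were similar in depth and makeup. Totals were 87096323 and 111170317 counts in control and 122061453, 84739741 and 88298457 in etomoxir. Genes with at least 1 count numbered 15253 and 15793 in control and 15898, 15713 and 15504 in etomoxir, and the groups overlapped (p = 0.6, exact permutation test, two-sided). The 10 most abundant genes took 11.9% and 12.3% of counts in control and 11.0%, 11.0% and 11.5% in etomoxir, where the groups did not overlap. Its p was 0.2 by the same exact permutation test, which is the smallest that 2 against 3 libraries can give. Among the IO+DHEA libraries, library 1 stood apart with 12990 genes detected, against 15056 in library 2.

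Gene by gene, the test of etomoxir against control made almost no call. With the quasi-likelihood test of edgeR and a Benjamini-Hochberg adjusted p under 0.05 as threshold, 1 of 14829 genes was higher in etomoxir, or 0.00674%, and 0 were lower, or 0%. The next smallest edgeR adjusted p was 0.287, shared by 89 genes. Before adjustment, 858 genes had a p under 0.05 and were higher (5.79%), and 435 had a p under 0.05 and were lower (2.93%). DESeq2 called more on the same counts, with 289 genes higher (1.95%) and 85 lower (0.573%), whereas limma-voom called 0 and gave 1319 genes an unadjusted p under 0.05. The number of calls thus depended on the tool.

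Most of the shifts that held in all 3 etomoxir libraries were under 2-fold between the nearest libraries. All etomoxir libraries lay above both controls for 2008 genes, 13.5% of those tested, and below both for 1795, or 12.1%. With only 2 against 3 libraries, a share of genes lies wholly above or below without any change. No excess is therefore read from these shares. Levels are in CPM, the counts of a gene as a share of its library's total after scaling by trimmed mean of M-values (TMM). Differences are of log2 CPM with a prior count of 2, unless another scale is named. Over these genes the median log2 fold change was 0.76 for those above and -0.50 for those below, and 262 and 104 of them were at least 2-fold apart in every pair of libraries. Among the 7520 genes whose mean reached 5 CPM, 1076 lay above (14.3%) and 1049 below (13.9%). The median log2 fold change was 0.50 for the former and -0.35 for the latter, while the median size over all genes of this level was 0.20. In whole embryos, fewer cells of a type and less RNA per cell cannot be told apart.

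The genes that lay above were not spread evenly over the table. When the rows were taken in the order of the deposited table in blocks of 100, 12 consecutive blocks stood out, rows 1101 to 2300. These blocks were found from the same values, as the longest run in which each etomoxir library had a block median over 0.2 log2 units above the mean of the controls, so the shift there is described and not tested. Only blocks with at least 10 genes of at least 5 CPM were used, of which the table has 270. Within the run the block medians of single etomoxir libraries ranged from 0.20 to 0.90. In the 258 blocks outside it they ranged from -0.36 to 0.33, and in 0 of them did all 3 libraries pass 0.2.

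**Figure D1:**
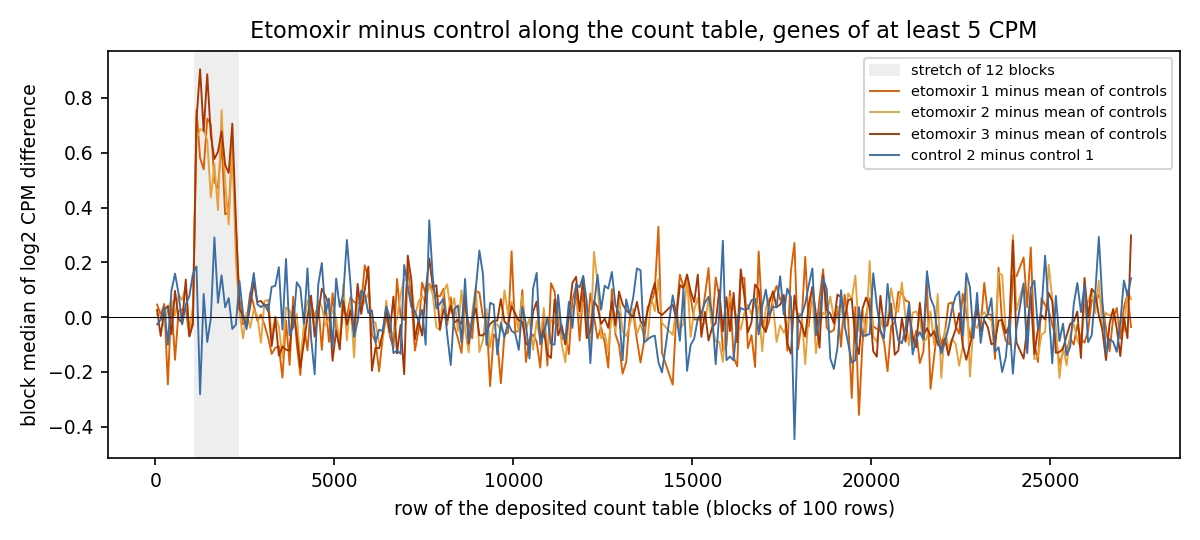
Median difference in log2 CPM per block of 100 rows (vertical axis) against the row of the deposited table (horizontal axis), for each etomoxir library minus the mean of the controls and for control 2 minus control 1. The 3 etomoxir lines rise together over rows 1101 to 2300, in grey, and lie between -0.36 and 0.33 elsewhere.

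The medians changed from block to block at the edges of the stretch, whose place also follows from the 0.2 limit. In the last block before it, rows 1001 to 1100, the medians were -0.01, 0.04 and -0.03 in etomoxir libraries 1, 2 and 3. In its first block, rows 1101 to 1200, they were 0.76, 0.65 and 0.72. In its last block, rows 2201 to 2300, they were 0.33, 0.20 and 0.35, and in the next, rows 2301 to 2400, 0.07, 0.02 and 0.03. The change at the first edge was within 1 block in all 3 libraries, and the last block was lower than the block before it, at 0.63, 0.63 and 0.71. With blocks of 50 rows the longest run was only rows 2001 to 2150, and with blocks of 200 it was rows 1201 to 2200. The minimum of 10 genes per block was kept for each size. Rows 1401 to 1500, 1601 to 1700 and 1701 to 1800 held only 14, 18 and 17 genes of at least 5 CPM. Within each of these, at least 1 block of 50 rows failed the minimum whatever its shift. The shorter run therefore does not show that the shift breaks up.

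The shift covered most genes of the stretch and varied in size among them. Of its 267 genes of at least 5 CPM, 235 had a log2 fold change above 0 (88%), with a median of 0.58 and quartiles of 0.30 and 0.84. Of the 7253 genes of this level on other rows, 3502 were above 0 (48.3%), with a median of -0.01 and quartiles of -0.19 and 0.19. The median gene of the stretch was thus 1.51-fold higher relative to the rest of the table. Of these 267 genes, 4 were over 4-fold higher and 0 over 4-fold lower by the fitted change. Its levels were ordinary, with a median of 29.8 CPM against 33.7 CPM on other rows.

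All 6 pairs of an etomoxir and a control library showed the shift. The differences between pairs used a TMM scale of all 7 libraries, with 0.05 CPM added before taking logarithms. The median difference over the 267 genes was 0.58, 0.54 and 0.70 against control 1 for etomoxir libraries 1, 2 and 3. It was 0.48, 0.46 and 0.59 against control 2. On other rows the 6 medians ranged from -0.05 to 0.00. Between the controls the median over the stretch was 0.06, and between pairs of etomoxir libraries it was 0.02 to 0.11. A difference between the groups was fixed by the choice of rows, so its size beside that between replicates is a description.

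The share of each library's counts that fell on these 1200 rows is given next, for rows chosen by the difference between the groups. It was 2.43% and 2.46% in the controls and 3.64%, 3.68% and 3.81% in etomoxir, and the groups did not overlap, as the choice of rows made likely. The IO+DHEA libraries, which had no part in finding the stretch, fell on either side, at 2.67% in library 1 and 4.26% in library 2. Measured as the stretch median minus the median on other rows, the shift over the mean of the controls was 0.59, 0.56 and 0.68 in etomoxir libraries 1, 2 and 3. For IO+DHEA it was 0.05 in library 1 and 0.79 in library 2. These values share the controls as reference, on the TMM scale of all 7 libraries with 0.05 CPM added before taking logarithms. Between the etomoxir libraries and the controls, the direction of the difference follows from the choice of rows. Only the IO+DHEA libraries were free of that choice, and they differed. The shift was present in IO+DHEA library 2 and absent or slight in library 1. Whether it goes with treatment was not tested.

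**Figure D2:**
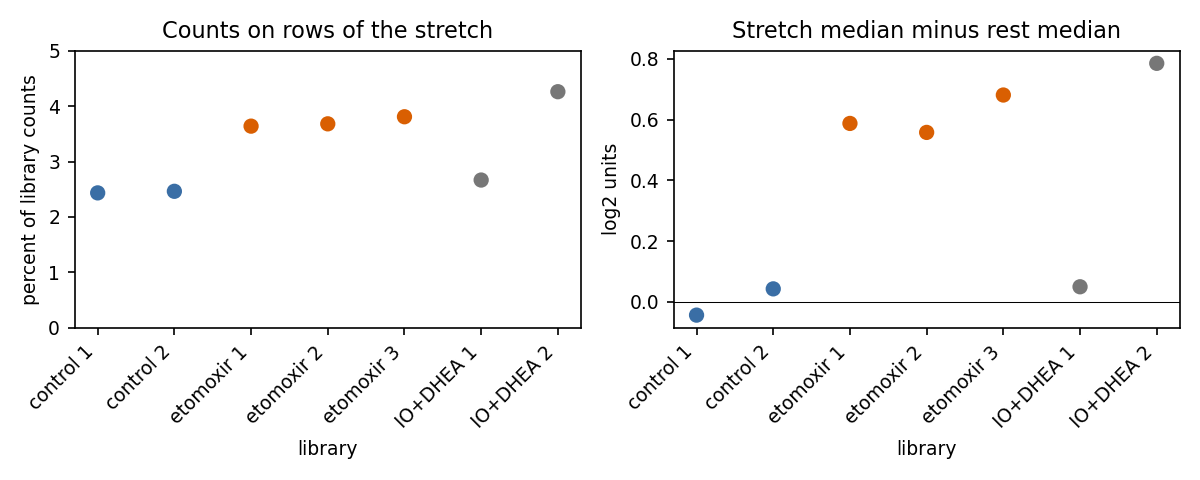
Left, the percent of each library's counts on rows 1101 to 2300; right, the median log2 difference of genes on these rows minus that of genes on other rows, each library set against the mean of the controls and each control against the other control. The 3 etomoxir libraries and IO+DHEA library 2 lie above 3.6%, and the controls and IO+DHEA library 1 lie below 2.7%. The right panel uses a TMM scale of all 7 libraries.

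Genes of 1 to 5 CPM in the stretch, which were not used to find it, were shifted the same way in etomoxir. The rows were chosen from the same control and etomoxir libraries, so this is no independent check. Over the 122 such genes on these rows, the median minus that of other rows was 0.40, 0.29 and 0.44 in etomoxir libraries 1, 2 and 3, and -0.04 and 0.66 in IO+DHEA libraries 1 and 2. Between the controls it was -0.06. The TMM scale of all 7 libraries was used for these values as well. The sources used here do not say what orders the rows of the table. The chromosome of these rows and the sex of the embryos were not analysed here, and their part in the result was not tested.

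Genes that lay above were more frequent in the stretch than on other rows, which its choice favoured. Of the 563 genes tested on its rows, 245 lay above both controls in all etomoxir libraries (43.5%), against 13.5% of all genes tested, and 17 lay below (3.02%), against 12.1%. It thus gave 12.2% of all genes that lay above, from 3.80% of the genes tested. On other rows the directions were nearly even, with 1763 of 14266 genes above (12.4%) and 1778 below (12.5%). DESeq2 called 88 genes of the stretch higher and 1 lower, together 15.8% of the genes tested there, against 2% of those on other rows. Over all genes tested it called 1.95% higher and 0.573% lower. The 1 gene called by edgeR lay on another row.

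Outside the stretch, few genes lay above or below by a wide margin in every pair of libraries, and more of them lay above. The gap of a gene is its smallest difference between any etomoxir and any control library. Among the 7253 genes of at least 5 CPM on other rows, 66 lay above and 23 below with a gap of at least 1.5-fold. With a gap of at least 2-fold, 18 lay above and 4 below. Over all 7520 genes of this level, 110 lay above and 23 below at 1.5-fold, and 23 and 4 at 2-fold. A mean over 3 etomoxir and 2 control libraries admits a gene high in etomoxir more easily than one high in control. With the mean of the 2 group means at 5 CPM or more, 7253 genes were left on other rows. Their counts were 63 above and 24 below at 1.5-fold and 17 and 4 at 2-fold. With both group means at 5 CPM or more, the counts over 6977 genes were 39 and 18 at 1.5-fold and 7 and 3 at 2-fold. These level rules were added after the data were seen. In the stretch 44 of 267 genes lay above and 0 below with a gap of at least 1.5-fold, by the mean over the 5 libraries. Outside the stretch, by the same mean, the 1.5-fold counts were 62 above and 26 below with median-of-ratios factors, 53 and 32 with upper quartile factors and 76 and 18 with library totals alone. By this mean, which more easily admits genes high in etomoxir, more genes lay above than below under all 4 scalings. The level rules based on the group means were run with TMM only, so their dependence on the scaling was not tested. Lying above needs 2 controls to be low, whereas lying below needs 3 etomoxir libraries to be low. The part of this in the counts was not tested, so no direction is read from them.

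**Figure D3:**
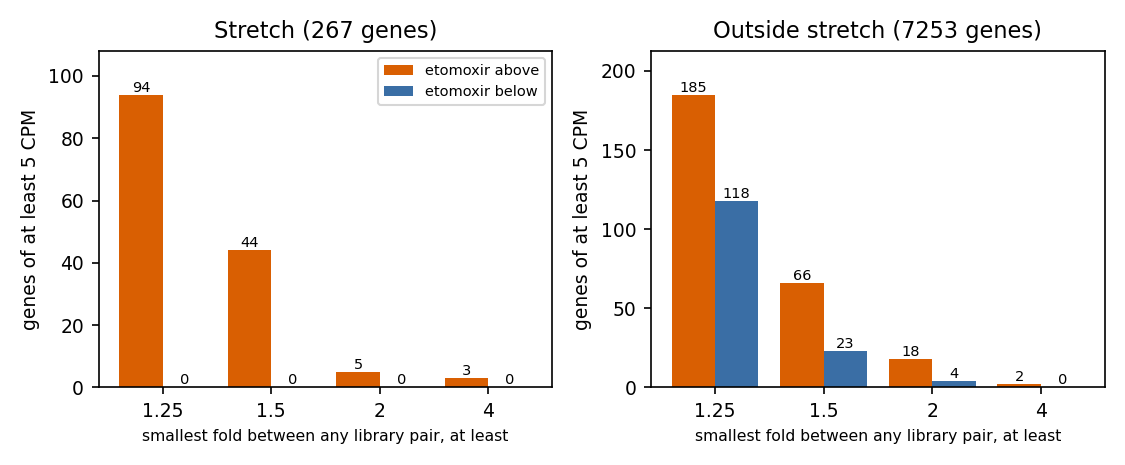
Number of genes of at least 5 CPM whose etomoxir libraries all lie above (orange) or below (blue) both controls by at least the fold on the horizontal axis, in the stretch of rows (left) and on other rows (right). At 1.5-fold, 44 of 267 genes lie above and 0 below in the stretch. Of the 7253 genes elsewhere, 66 lie above and 23 below.

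Of the most abundant genes, more lay below than above. Among the 500 genes with the highest mean over the 5 libraries, 134 lay below both controls in all etomoxir libraries (26.8%) and 52 above (10.4%), against 12.1% and 13.5% of all genes tested. Their median absolute log2 fold change was 0.17. The balance stayed downward under the other scalings, with 141 below and 49 above with median-of-ratios factors, 159 and 45 with upper quartile factors and 100 and 68 with library totals alone. Of the 52 genes above, 13 lay in the stretch. With a gap of at least 1.5-fold, 7 of the 500 lay above and 0 below. Falls among abundant genes were thus frequent but narrow.

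Over wider classes of level the balance depended on the scaling. Outside the stretch, 540 of the 2965 genes over 50 CPM lay below (18.2%) and 337 above (11.4%). With library totals alone this turned to 372 below and 469 above. At 5 to 50 CPM, 570 of 4288 genes lay above (13.3%) and 504 below (11.8%), which turned to 503 above and 580 below with upper quartile factors. Under 1 CPM, 454 of 4058 lay above (11.2%) and 399 below (9.83%), and the larger number lay above under all 4 scalings. Because of the scaling, no direction is given for the classes from 1 CPM upward. Under 1 CPM no direction is read either, since both controls are more easily very low than all etomoxir libraries. The part of this in the counts under 1 CPM was not tested.

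**Figure D4:**
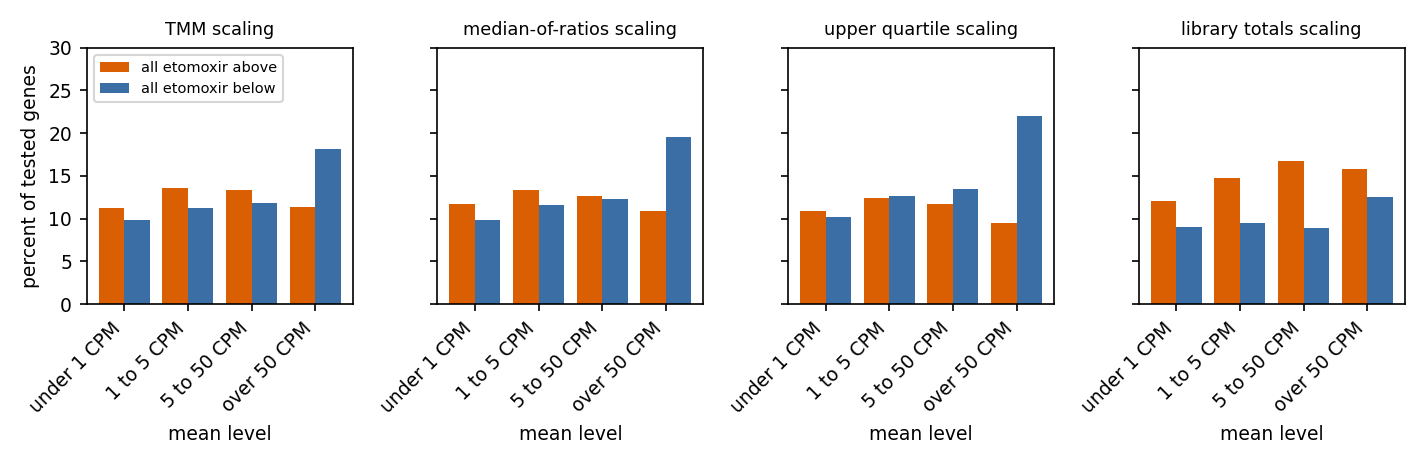
Percent of the tested genes outside the stretch whose etomoxir libraries all lie above (orange) or below (blue) both controls, by mean level, under 4 scalings of the libraries. Over 50 CPM the lower genes are more frequent under 3 scalings and the higher genes with library totals alone.

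At the edge of detection, 37 genes had 0 counts in both controls and at least 10 in each etomoxir library, and 14 genes had 0 in all etomoxir libraries and at least 10 in both controls. Of these, 3 and 1 lay in the stretch. The 37 genes had a median level of 0.232 CPM over the 5 libraries. A count of 0 allows up to 3 counts, or 0.0246 to 0.0354 CPM in these libraries, if 1 count is 1 fragment and for counting error only. Since 2 libraries are more easily all at 0 than 3, the numbers 37 and 14 are not compared.

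The gene called by edgeR, ENSBTAG00000043960, was detected at a low level in both controls and was much higher in every etomoxir library. It was at 1.42 and 1.03 CPM in controls 1 and 2 and at 46.0, 63.1 and 74.5 CPM in etomoxir libraries 1, 2 and 3. The groups were far apart, and the lowest etomoxir library was 31.9-fold above the highest control. Its log2 fold change was 5.64 ± 0.34 (SE), with an edgeR adjusted p of 0.00554. The call was lost without etomoxir library 2, at an edgeR adjusted p of 0.0538, and by limma-voom, at 0.0585. The range over all 17 settings was 3.52e-77, by DESeq2, to 0.0585.

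The gene on the next row of the table had the widest gap among genes whose mean reached 5 CPM, a level it reached only through the etomoxir libraries. ENSBTAG00000004052, on row 8016 after row 8015, had 0 and 17 counts in controls 1 and 2 and 1136, 908 and 995 counts in etomoxir libraries 1, 2 and 3. This was 0 and 0.158 CPM against 8.89, 10.6 and 11.4 CPM. The etomoxir libraries had the same order in both genes, lowest in library 1 and highest in library 3. Its log2 fold change was 6.93 ± 0.99 (SE) with an edgeR adjusted p of 0.287, so it did not pass the threshold. The fitted change rests on the 17 counts of control 2: it was 12.96 without that library, when the only control left had 0 counts, and 6.004 without control 1. The edgeR adjusted p was 0.0383 without a filter and 0.0204 without control 2, where the spread came from the etomoxir libraries alone and control was assumed to vary like them. By DESeq2 it was 0.000357, and the adjusted p of all settings ran from 0.000357 to 0.9997. Whether the counting gave both genes reads of 1 transcript was not tested.

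Of the genes that lay below and had a mean of at least 5 CPM, ENSBTAG00000039722 had the widest gap. It was at 47.0 and 57.4 CPM in controls 1 and 2 and at 15.9, 21.2 and 21.4 CPM in etomoxir libraries 1, 2 and 3. The groups did not overlap, and the highest etomoxir library was 2.20-fold below the lowest control. Its log2 fold change was -1.42 ± 0.21 (SE), with an edgeR adjusted p of 0.287 that did not pass and a DESeq2 adjusted p of 9.54e-07 that did. The adjusted p of all settings ran from 9.54e-07 to 0.9997.

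ENSBTAG00000011154 came next, at 9.38 and 13.3 CPM in controls 1 and 2 and at 3.01, 4.34 and 4.01 CPM in etomoxir libraries 1, 2 and 3. Its mean reached 5 CPM, the level needed for this ranking, only through the controls. Again the groups did not overlap, with a gap of 2.16-fold. Its log2 fold change was -1.58 ± 0.31 (SE), with an edgeR adjusted p of 0.287 and a DESeq2 adjusted p of 0.000405, over a range of 0.000405 to 0.9997 in all settings. These 2 genes lay outside the stretch, as did both genes that were higher. The 3 genes other than ENSBTAG00000043960 were chosen for their gap, so their gaps are a description.

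**Figure D5:**
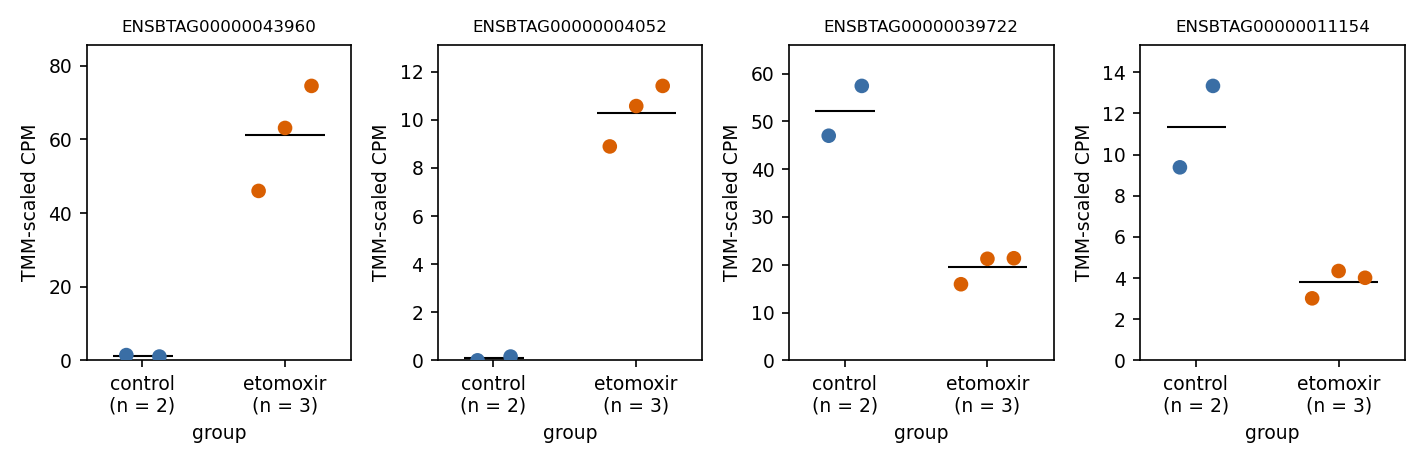
TMM-scaled CPM (vertical axis, from 0) of 4 genes in each control library (blue, n = 2) and etomoxir library (orange, n = 3), with the group mean as a line. In each panel the groups do not overlap, with etomoxir higher for ENSBTAG00000043960 and ENSBTAG00000004052 and lower for the other two.

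The etomoxir libraries set the limits of these shifts unequally. Library 2 was the one nearest the controls for 40.4% of the 2008 genes that lay above and 37.9% of the 1795 that lay below. Library 1 was nearest for 26.5% and 27.1%, and library 3 for 33.1% and 35%. Library 1 also had the largest total, and library 2 the smallest. The part of depth in this order was not tested.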

How the data were processed

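The authors deposited raw counts per Ensembl gene ID. The submitters' processing notes name cutadapt 1.18, STAR 2.7.9a, featureCounts 2.0.1 and build ARS-UCD1.2. Per the labels' protocols, SMARTer Ultra Low Input and Nextera XT kits were used. The sources used here do not give the settings for strand and shared reads, so overlapping or near-identical genes are uncertain. Among counts of 1 to 20, 67.7% to 71.0% were even in the 5 libraries, so 1 count may not be 1 fragment.

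Groups followed the treatment label. Counts of the 5 libraries were scaled by TMM and tested with edgeR 4.0.16 (glmQLFit, glmQLFTest; R 4.3.3), with 3 residual degrees of freedom, two-sided and adjusted over all 14829 genes. DESeq2 1.42.0 and limma 3.58.1 (voom) were alternatives, with other scalings and filters, halved counts, a replicate block, all 7 libraries, and each library left out. The edgeR test was also run on simulated data with 200 genes changed. It recovered 14% of 2-fold, 58% of 4-fold, 74% of 8-fold and 76% of 16-fold changes. Of its 121 calls there, 10 were false. Most 2-fold changes were thus missed in the simulation, and smaller ones were not simulated. The SE printed with an edgeR log2 fold change was derived from its test. It is the size of the change over the square root of the F statistic. Level classes use the mean CPM of the 5 libraries.

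The members and lists were chosen with earlier results of these data known. The row blocks and their alternatives were added after the data were seen. Genes were named as those called, then by gap at a mean of at least 5 CPM, with at most 2 IDs in each direction. Without symbols none of the 27 gene lists or lineage markers could be measured. Figures used matplotlib 3.10.9.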

Additional observations from a re-analysis of the deposited data

Results flagged for a closer look

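The IO+DHEA libraries entered no comparison, and values above those of the controls were found there. On a TMM scale of all 7 libraries, ENSBTAG00000043960 was at 61.5 and 75.4 CPM in IO+DHEA libraries 1 and 2, against 1.39 and 1.01 CPM in the controls. ENSBTAG00000004052 was at 1.397 and 2.66 CPM, against 0 and 0.155 CPM in the controls and 8.66 to 11.2 CPM in etomoxir. Over rows 1101 to 2300, the median log2 difference from control relative to other rows was 0.0501 in IO+DHEA library 1 and 0.786 in library 2, where the controls differed from each other by 0.0432. The value of library 1 is barely past that of the controls. The genes lower in etomoxir split by IO+DHEA library: ENSBTAG00000039722 was at 46.6 and 6.08 CPM in libraries 1 and 2, against 46.0 and 56.5 CPM in the controls, and ENSBTAG00000011154 at 19.04 and 5.72 CPM, against 9.19 and 13.1 CPM. These differences were not tested.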

How the results depend on the processing

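The count of 1 called gene was the same under 10 of 13 alternatives that kept all 5 libraries. It was 3 without a filter, 374 with DESeq2 and 0 with limma-voom, and it ranged from 0 to 3 when single libraries were left out: leaving out control 1 gave 2, leaving out control 2 gave 3, and leaving out etomoxir library 2 gave 0, where 1299 genes had an unadjusted p under 0.05. The genes above and below both controls numbered 1153 and 1067 with at least 5 CPM in 2 libraries, since fewer genes were tested. They ranged from 2735 to 4174 and from 2583 to 3940 when a library was left out, since fewer libraries had to be apart. With library totals 2369 lay above and 1415 below, and with upper quartile factors 1830 and 2038, so the larger direction over all genes depended on the scaling. The median shift of the stretch relative to other rows was 0.60, ranged from 0.55 to 0.63 when a library was left out, and was 0.40 over genes of 1 to 5 CPM, a value chosen after seeing the data. Blocks of 50 rows, with the minimum of 10 genes kept, gave a shorter stretch, rows 2001 to 2150, with a median shift of 0.59. Blocks of 200 rows gave rows 1201 to 2200, with a median shift of 0.60. The replicate numbers of the titles were not shown to pair libraries. Deviations of same-numbered libraries from their group means correlated across genes at -0.11 and 0.18. Etomoxir library 3, which has no control of its number, gave 0.29 with control 1 and -0.29 with control 2. With only 2 controls their deviations mirror each other, so these correlations can neither show nor exclude pairing. With the replicate block 1 gene was called, with 970 genes at an unadjusted p under 0.05 against 1293. A fit of all 7 libraries called 1 gene, with 512 at an unadjusted p under 0.05. The gene lists were not run, for lack of symbols.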
